A study of Mus musculus with 12 samples.

Results

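The iron and heme genes described here are 10 genes that take up, store, sense and export iron or break down heme: Tfrc, Slc11a2, Fth1, Ftl1, Ireb2, Slc40a1, Hmox1, Hmox2, Blvra and Blvrb. They were chosen by symbol from a list of this pathway and make up 10 of the 24982 genes in each library. B lymphocytes were isolated from the spleens of mice aged 6 weeks, and polyadenylated RNA was sequenced from 12 libraries in 3 genotypes with 4 libraries each. The WT group is given in the study's design as C57BL/J6. The Eμ-Myc group carries the Eμ-Myc transgene, in which the immunoglobulin heavy chain enhancer drives Myc in the B lineage. The Eμ-Myc; PRPS2 KO group carries the same transgene and lacks PRPS2, an enzyme that makes phosphoribosyl pyrophosphate for nucleotide synthesis. The design asks what Myc changes in B lymphocytes, and whether changes in redox balance after PRPS2 loss meet that program. The labels call the libraries biological replicates but name no animals, so p-values measure the spread between these libraries.

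Cells take up iron mainly as transferrin bound to the transferrin receptor, keep what they do not use inside ferritin, and release it through ferroportin. Heme oxygenases open the heme ring and free its iron, and biliverdin reductases turn the biliverdin that results into bilirubin. In the spleen the macrophages of the red pulp do most of this recycling, since they clear aged red blood cells, whereas dividing lymphocytes depend on transferrin uptake. Iron regulatory proteins, of which Ireb2 is one, bind hairpins called iron-responsive elements when iron is low: bound in the 3′ UTR of Tfrc they protect the mRNA, and bound in the 5′ UTR of ferritin mRNAs they block translation. Ferritin protein therefore need not follow ferritin mRNA, which is what was measured here.

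The hairpins of Tfrc and of the ferritin genes are shown because these genes carry them at opposite ends of the message. In GENCODE M21 transcripts (GRCm38, the same assembly as mm10) an iron-responsive element pattern was searched on the transcript strand: a bulged C, 5 stem bases, a loop of CAGTG followed by any base but G, and 5 bases that all pair with the first 5, G with T included. It was found in 4 of the 10 genes, namely Tfrc with 4 matches in 1 transcript and Fth1, Ftl1 and Slc40a1 with 1 each. Of 21877 protein-coding genes searched, 222 (1.01%) hold it, and a match is a description of the sequence only. The pattern is strict, so an element with an unpaired stem base or another loop would be missed. A gene without a match may therefore still carry an element, and a gene with matches may carry more. Capitals mark the bulged C and the 6-base loop in the 30-base sequences below, each 5′ to 3′ on the gene's own strand.
Tfrc element 1: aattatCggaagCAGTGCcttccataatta
Tfrc element 2: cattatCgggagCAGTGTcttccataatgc
Tfrc element 3: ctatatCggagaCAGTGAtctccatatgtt
Tfrc element 4: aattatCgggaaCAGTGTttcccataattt
Fth1 element 1: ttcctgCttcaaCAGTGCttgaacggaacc
Ftl1 element 1: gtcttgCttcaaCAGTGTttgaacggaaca

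The 4 Tfrc elements lie in the 3′ UTR within exon 19 of 19, on the plus strand, at chr16:32631219-32631248, chr16:32631598-32631627, chr16:32631663-32631692 and chr16:32631710-32631739. The Fth1 element lies in the 5′ UTR in exon 1 of 4, at chr19:9982732-9982761 on the plus strand. The Ftl1 element lies in the 5′ UTR in exon 1 of 4, at chr7:45459778-45459807 on the minus strand.

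Each deposited value is a gene's coverage, a signal and not a read count, and was divided by 1 scaling factor per library; the result is called scaled coverage below. The summed coverage was 1277305.5 to 1885768.9 per library, with 14900 to 16231 genes above 0. The targeted gene Prps2 was at 103.6, 140.0, 129.9 and 142.5 in WT, at 242.3, 201.5, 245.6 and 280.6 in Eμ-Myc, and at 18.8, 16.9, 16.3 and 15.4 in Eμ-Myc; PRPS2 KO (replicates 1 to 4). All 4 knockout libraries were below every other library. Myc was at 238.2 to 352.0 in WT, 1582 to 2235 in Eμ-Myc and 1131 to 3121 in Eμ-Myc; PRPS2 KO. All 8 B cell markers, such as Cd79a, were at 1 or more in every library, and their sum was 6661 to 12863. The isolates also held messages of other cells. The sum of 14 macrophage markers ran from 845 to 4152, and that of 10 neutrophil and monocyte markers from 1287 to 36170. The sum of the 11 erythroid markers in the files was 83.9 to 852.3 in WT, 98.2 to 516.2 in Eμ-Myc and 99.7 to 147.9 in Eμ-Myc; PRPS2 KO, and its part in the results was not tested. T cell and NK cell markers were higher in each WT library than in any Eμ-Myc library: the T cell sum was 744.4 to 3948 against 164.2 to 230.7, and the NK cell sum 357.9 to 1558 against 96.3 to 257.5. Among the Eμ-Myc; PRPS2 KO libraries, replicates 1 and 2 had T cell sums of 892.3 and 948.3, and replicates 3 and 4 had 72.6 and 71.9. No marker found in the files was at 0 in any library. In such bulk samples, fewer cells of a type and less RNA per cell cannot be told apart.

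Within WT, the ferritin subunit genes stood above the rest and the iron importer genes were near the bottom. Mean scaled coverage, from values deposited as coverage per gene, placed Fth1 (2556 ± 344, SD, n = 4) first and Ftl1 (1744 ± 244) second, and their ranges did not overlap. Hmox1, Hmox2, Blvrb and Slc40a1 followed between 451.7 and 204.3, and each overlapped the next in this order. Tfrc (62.1 ± 4.6), Blvra (53.6 ± 10.5) and Ireb2 (42.3 ± 4.6) also overlapped in turn. Slc11a2 was the lowest member at 24.6 ± 5.8, below all Ireb2 values. In both Eμ-Myc groups Tfrc took the place above Slc40a1 (its mean was 232.2 against 179.0 in Eμ-Myc and 235.8 against 149.8 in Eμ-Myc; PRPS2 KO), although the ranges of these 2 genes overlapped there. How far coverage was normalised for gene length is not given in the sources used here, so the order between genes is a description.

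**Figure D1:**
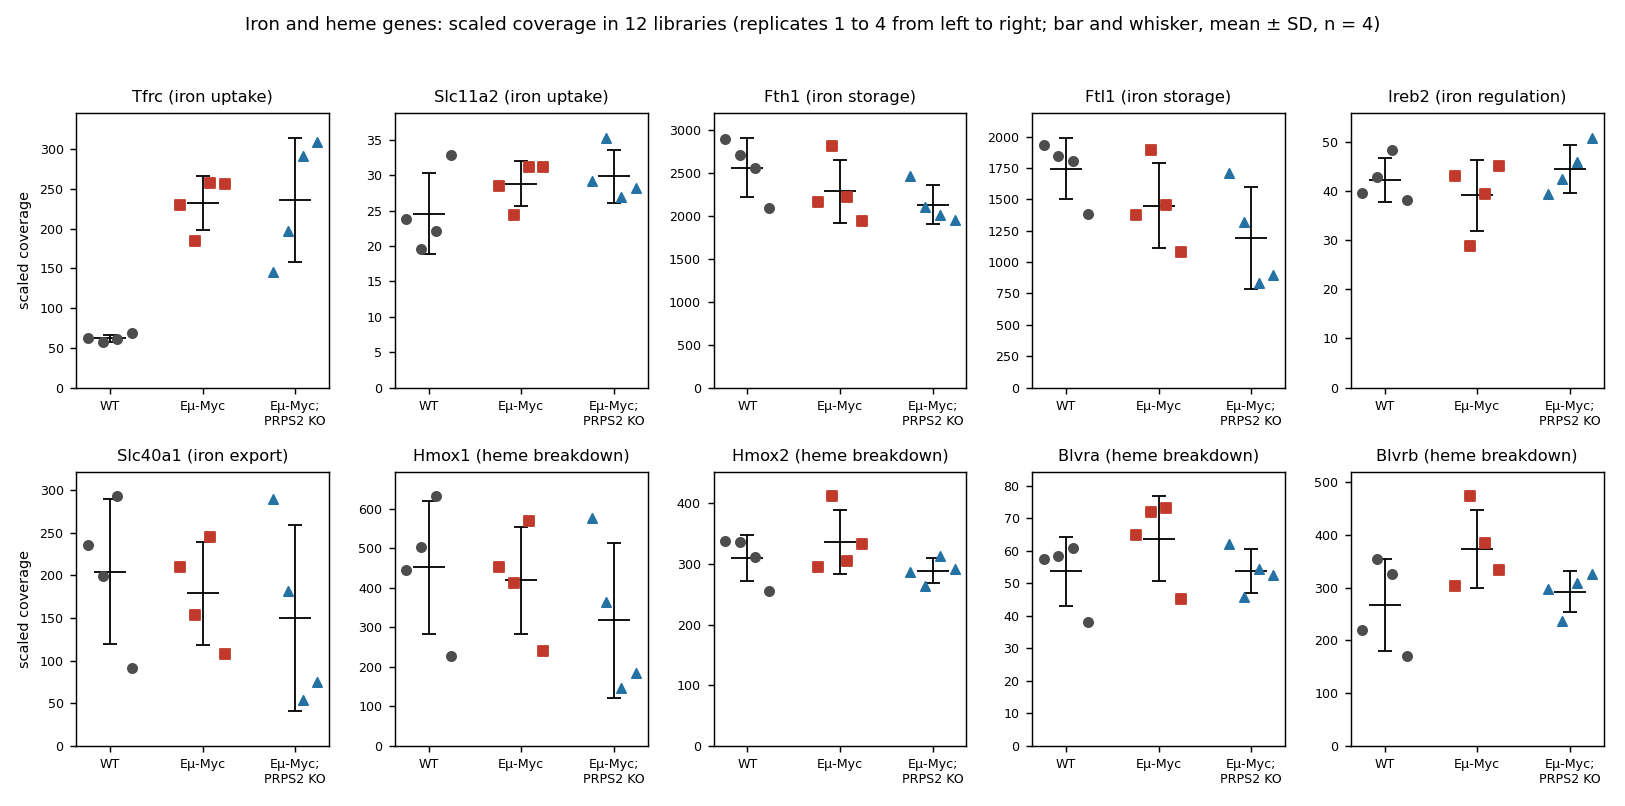
Scaled coverage (linear axis from 0) of the 10 genes in each of the 12 libraries, with points for replicates 1 to 4 from left to right and mean ± SD (n = 4) for each group. Tfrc separates WT (57.2 to 68.2) from both Eμ-Myc groups (145.1 to 309.2), and Hmox1 and Slc40a1 spread widely within every group.

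In Eμ-Myc against WT, the transferrin receptor gene Tfrc rose, and it was the only one of the 10 that passed the test. With quality weights, where 71.2% of all genes were called, Slc11a2, Fth1 and Ftl1 passed too, and with a replicate block (57.5%) Blvra and Blvrb did. Tfrc was at 62.0, 57.2, 61.0 and 68.2 in WT and at 230.0, 184.4, 257.8 and 256.7 in Eμ-Myc. The lowest Eμ-Myc library was above the highest WT library. The log2 fold change was 1.88 (SE 0.12, 95% interval 1.61 to 2.16, limma adjusted p = 6.35e-06, n = 4 and 4), or 3.69-fold. Over all genes tested, 56.2% were called at an adjusted p under 0.05 (28.3% higher and 27.9% lower), and in 52.3% the groups did not overlap, so 1 of 10 members called and 1 of 10 without overlap stand below the background of this comparison. The members' median log2 fold change was 0.01, with 5 above 0 and 5 below, beside -0.07 over all genes tested. T cell and NK cell marker sums also differed between these groups, as given above, and their part in the Tfrc difference was not tested.

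Slc11a2 encodes the divalent metal transporter that moves iron across membranes, out of endosomes among others. Its values were 23.9, 19.6, 22.1 and 32.9 in WT and 28.5, 24.5, 31.2 and 31.3 in Eμ-Myc. WT replicate 4 lay above all Eμ-Myc libraries, and the log2 difference of 0.24 (SE 0.17, limma adjusted p = 0.236) did not pass. Without that library it was 0.39 and passed (adjusted p = 0.0364), as it did with quality weights (0.47, adjusted p = 0.00433; range of adjusted p over alternatives 0.00433 to 0.565). Without WT replicate 2 the difference was 0.15 and with total coverage scaling it was 0.13, neither passing.

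Neither of the storage genes passed the test. Fth1, the ferritin heavy chain that oxidises iron as it enters the shell, was at 2886, 2705, 2551 and 2083 in WT and 2162, 2807, 2214 and 1941 in Eμ-Myc. Its log2 difference was -0.17 (95% interval -0.49 to 0.15, limma adjusted p = 0.338). With quality weights it was -0.26 and passed (adjusted p = 0.0271, range over alternatives 0.0271 to 0.63). Ftl1, the ferritin light chain, was at 1935, 1849, 1805 and 1387 in WT and 1374, 1893, 1453 and 1078 in Eμ-Myc. The groups overlapped, and the log2 difference was -0.28 (95% interval -0.68 to 0.12, limma adjusted p = 0.196). Without Eμ-Myc replicate 2, the highest of its group, it was -0.42 and passed, as it did with total coverage scaling (-0.40) and quality weights (-0.39; adjusted p = 0.0458, 0.0496 and 0.0214, range over alternatives 0.0214 to 0.47). Without Eμ-Myc replicate 4, the lowest of its group, the Ftl1 difference was -0.15 and did not pass. Processed copies of both ferritin genes exist in the mouse genome and the handling of shared reads is not given in the sources used here, so these values are uncertain. With Tfrc higher and Fth1 not called, the ratio of Fth1 to Tfrc coverage was 30.5 to 47.3 in WT, 7.56 to 15.2 in Eμ-Myc and 6.30 to 16.9 in Eμ-Myc; PRPS2 KO, so WT did not overlap either Eμ-Myc group. Tfrc alone already separated WT from both groups, and Fth1 varied only 1.49-fold over the 12 libraries. The ratio is therefore not a result apart from Tfrc.

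Ireb2, the iron regulatory protein that binds the hairpins shown above, was at 39.6, 43.0, 48.5 and 38.2 in WT and 43.2, 28.9, 39.5 and 45.1 in Eμ-Myc. The log2 difference of -0.12 (95% interval -0.47 to 0.22, limma adjusted p = 0.507) did not pass, and iron regulatory proteins are known to be controlled largely after transcription.

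Slc40a1 encodes ferroportin, the exporter of iron. It was at 235.1, 199.0, 292.4 and 90.8 in WT and 209.5, 153.6, 244.7 and 108.2 in Eμ-Myc. Replicate 4 was the lowest in each group, and the log2 difference was -0.14 (SE 0.38, 95% interval -0.99 to 0.72, limma adjusted p = 0.774).

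Hmox1, the inducible heme oxygenase, was at 444.4, 503.7, 630.7 and 228.1 in WT and 453.0, 412.9, 568.0 and 239.6 in Eμ-Myc. Here too replicate 4 was the lowest in each group, and the log2 difference was -0.08 (SE 0.35, limma adjusted p = 0.847). The directions for Slc40a1 and Hmox1 are not fixed by these data: without WT replicate 3 the log2 differences became 0.08 and 0.11, and without Eμ-Myc replicate 4 they became 0.08 and 0.16.

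Hmox2, the constitutive heme oxygenase, was at 337.6, 335.5, 311.1 and 254.9 in WT and 294.7, 411.2, 304.8 and 332.5 in Eμ-Myc, a log2 difference of 0.11 (95% interval -0.20 to 0.42, limma adjusted p = 0.502). That sign was not kept when libraries were scaled to total coverage, where the difference was -0.00404. Hmox2 overlaps other annotated genes, Cdip1 on the opposite strand among them, and whether strand was used in making the coverage is not given in the sources used here.

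The biliverdin reductase genes had positive differences that did not pass. Blvra was at 57.4, 58.3, 60.8 and 38.0 in WT and 64.8, 71.7, 73.2 and 45.0 in Eμ-Myc (log2 difference 0.24, SE 0.20, limma adjusted p = 0.312). Without WT replicate 4 the difference was 0.088 and without Eμ-Myc replicate 4 it was 0.40, neither passing. Blvrb, which also reduces flavins, was at 219.3, 355.2, 325.3 and 169.6 in WT and 304.2, 473.2, 385.0 and 334.5 in Eμ-Myc. WT replicates 2 and 3 reached above the lowest Eμ-Myc library, and the log2 difference was 0.53 (SE 0.24, 95% interval -0.02 to 1.08, limma adjusted p = 0.0922). Blvrb was the member closest to the threshold after Tfrc. Without WT replicate 2 the difference was 0.68 and passed (adjusted p = 0.0387, range over alternatives 0.0184 to 0.211).

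**Figure D2:**
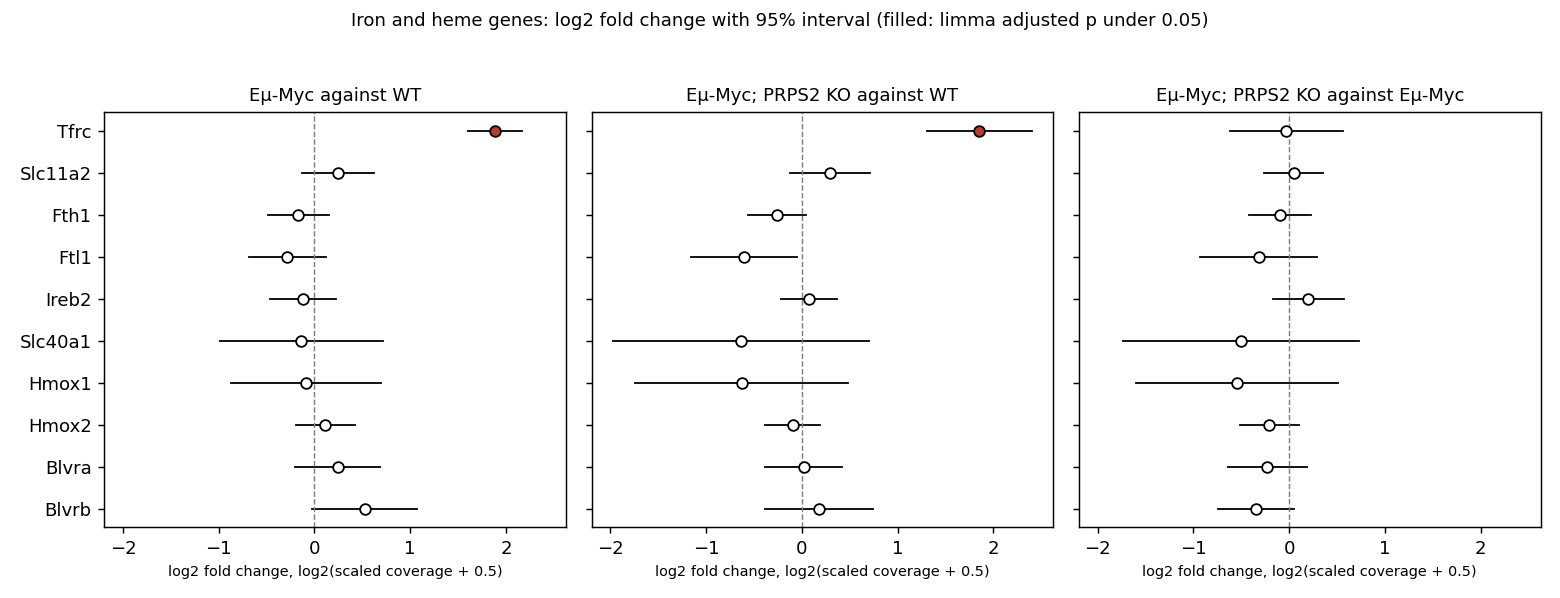
Log2 fold change (x axis, log2 of scaled coverage + 0.5) of each of the 10 genes in the 3 comparisons, with 95% intervals from limma and 4 libraries per group; filled points have an adjusted p under 0.05. Tfrc is filled in both comparisons with WT, at 1.88 and 1.85, and no gene is filled between the Eμ-Myc groups.

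In Eμ-Myc; PRPS2 KO against Eμ-Myc, none of the 10 genes passed the test. By limma, 0 of 10 members were called and 0 had an unadjusted p under 0.05, and the groups overlapped for each member. Over all genes tested, 0.00799% were called (Prps2 alone), 0.967% had an unadjusted p under 0.05 and 1.59% did not overlap, so the members' counts are near the background. Their median log2 difference was -0.22, with 2 above 0 and 8 below, beside -0.04 over all genes. When libraries were weighted by their estimated quality, 7228 genes (57.8%) and 5 of the 10 members passed, namely Tfrc, Ftl1, Ireb2, Slc40a1 and Hmox1. That fit gave knockout replicates 1 and 2 weights of 0.0855 and 0.131, against 3.05 and 8.50 for replicates 3 and 4.

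The mean Tfrc level was 232.2 in Eμ-Myc and 235.8 in Eμ-Myc; PRPS2 KO, with SDs of 34.4 and 78.0 (n = 4). Tfrc was at 145.1, 197.1, 292.1 and 309.2 in Eμ-Myc; PRPS2 KO, and the Eμ-Myc values of 184.4 to 257.8 lay within that range. The log2 difference was -0.03 (SE 0.26, 95% interval -0.62 to 0.56, limma adjusted p = 1.00). The sign changed with median-of-ratios scaling (0.00203) and with total coverage scaling (0.0057). Without knockout replicate 1 the difference was 0.18, and with quality weights it was 0.27 and passed (adjusted p = 0.0258). The knockout libraries with the higher Tfrc also had the higher Myc, 2881 and 3121 in replicates 3 and 4 against 1131 and 1704 in replicates 1 and 2. They had the lower macrophage sums as well, 845.4 and 1053 against 4152 and 2595, and the part of either in the Tfrc spread was not tested.

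The other importer and the regulator gave small differences. Slc11a2 was at 29.2, 35.3, 26.9 and 28.2 in Eμ-Myc; PRPS2 KO, a log2 difference of 0.05 (95% interval -0.26 to 0.36). Ireb2 was at 39.4, 42.5, 45.9 and 50.9, a log2 difference of 0.20 (95% interval -0.17 to 0.57). Both had a limma adjusted p of 1.00. With quality weights Ireb2 was at 0.27 and passed (adjusted p = 0.0198), and Slc11a2 was at -0.13. The Ireb2 difference ran from 0.063 to 0.27 with 1 library left out.

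Among storage genes, Fth1 was at 2460, 2103, 2004 and 1947 in the knockout group, a log2 difference of -0.09 from Eμ-Myc (95% interval -0.41 to 0.23). Ftl1 was at 1707, 1317, 832.1 and 899.2, a log2 difference of -0.32 (95% interval -0.93 to 0.29), or -0.60 and passing with quality weights (adjusted p = 0.00345). Its difference ran from -0.51 to -0.17 with 1 library left out. Knockout replicates 3 and 4 lay below every other library for Ftl1. They did not for Fth1, for which Eμ-Myc replicate 4 was the lowest. The ratio of Fth1 to Ftl1 coverage was therefore 2.41 and 2.17 in those 2 libraries, against 1.41 to 1.5 in WT, 1.48 to 1.80 in Eμ-Myc and 1.44 and 1.60 in knockout replicates 1 and 2.

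The exporter and the inducible heme oxygenase had the widest spread in the knockout group. Slc40a1 was at 289.8, 181.0, 53.9 and 74.4 (log2 difference from Eμ-Myc -0.50, SE 0.54). Hmox1 was at 575.6, 363.2, 146.4 and 183.8 (log2 difference -0.54, SE 0.46). In both, replicate 1 was above every Eμ-Myc library and replicates 3 and 4 were below every one. Without knockout replicate 1 the differences were -0.92 and -0.90, and without knockout replicate 3 they were -0.12 and -0.24, none passing. With quality weights they were -1.44 (adjusted p = 0.0039) and -1.30 (adjusted p = 0.00483), and both passed.

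Hmox2 was steadier, at 286.5, 263.1, 313.7 and 292.3 in the knockout group (log2 difference from Eμ-Myc -0.21, SE 0.14). Hmox1 coverage exceeded that of Hmox2 in knockout replicates 1 and 2, and Hmox2 exceeded Hmox1 in replicates 3 and 4, with ratios of Hmox2 to Hmox1 of 0.50, 0.72, 2.14 and 1.59. Blvra was at 62.0, 45.9, 54.4 and 52.7 (log2 difference -0.23, SE 0.18). Blvrb was at 297.8, 237.0, 308.1 and 326.9 (log2 difference -0.35, SE 0.17, unadjusted p = 0.0776), and these values overlapped those of Eμ-Myc.

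In Eμ-Myc; PRPS2 KO against WT, which uses the same WT libraries as the first comparison and is therefore not independent of it, Tfrc was again the only member called. All 4 knockout libraries (145.1 to 309.2) were above all WT libraries (57.2 to 68.2), with a log2 fold change of 1.85 (SE 0.24, 95% interval 1.30 to 2.41, limma adjusted p = 0.00909). The call held in all 19 alternatives, at 1.70 to 2.32, with adjusted p up to 0.0386. Of all genes tested, 31.4% were called and in 38.8% the groups did not overlap, beside 1 of 10 members on each count (Tfrc, higher, as were 19.3% of all genes). The members' median was -0.04, beside -0.09 over all genes. Ftl1 had a log2 difference of -0.60 (SE 0.24, unadjusted p = 0.0364) that did not pass over all genes (limma adjusted p = 0.0801). Without knockout replicate 1 it was -0.80 and passed (adjusted p = 0.0152, range over alternatives 7.59e-06 to 0.197). The other 8 members had adjusted p from 0.135 (Fth1, log2 difference -0.26) to 0.936 (Blvra, 0.02). With quality weights, where 84.0% of all genes were called, Slc11a2, Fth1, Ftl1, Slc40a1 and Hmox1 passed beside Tfrc. Among the 8, the intervals of Slc40a1 (-1.98 to 0.70) and Hmox1 (-1.74 to 0.48) were the widest.

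Hmox1 and Slc40a1 varied together with macrophage markers across the 12 libraries. The list of 14 markers (Spic, Vcam1, Adgre1, Cd5l, Cd163, C1qa, C1qb, C1qc, Csf1r, Mrc1, Siglec1, Marco, Cd68 and Treml4) summed to 2623, 2585, 3383 and 1451 in WT, 2894, 3024, 3366 and 1268 in Eμ-Myc, and 4152, 2595, 845.4 and 1053 in Eμ-Myc; PRPS2 KO. The group ranges overlap, and no marker was at 0 in any library. In each of the 3 groups the library with the lowest sum was also the lowest for Hmox1 and Slc40a1, and the library with the highest sum was the highest for both. Hmox1 coverage ran over a 4.31-fold range, yet set against the macrophage sum of its own library it was 13.7% to 19.5%, a 1.43-fold range. Slc40a1 ran over 5.43-fold, and was 5.08% to 8.96% of that sum, a 1.76-fold range. As a share of the B cell marker sum the same genes ranged 3.56-fold and 4.88-fold. In the knockout group Slc40a1 was 6.98%, 6.98%, 6.37% and 7.06% of the macrophage sum, although its own coverage lay between 53.9 and 289.8. Tfrc differed from these genes: its share of the macrophage sum ran over 19.2-fold, against 5.40-fold for its coverage. Ftl1 shared the lowest library in 3 of 3 groups but the highest in 1 of 3, and its share of the sum ranged 2.39-fold beside 2.33-fold for its coverage. These points share libraries and scaling factors and are given as a description. Which cells the Hmox1 and Slc40a1 messages came from was not tested.

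**Figure D3:**
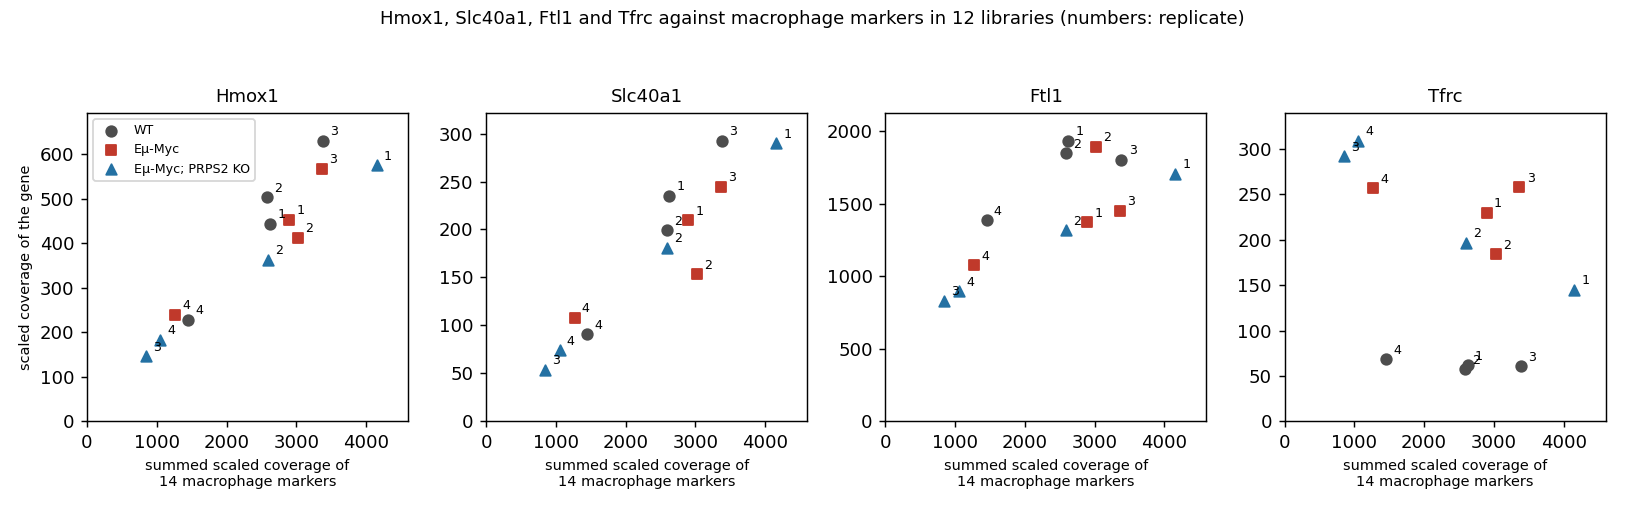
Scaled coverage of Hmox1, Slc40a1, Ftl1 and Tfrc (y axes) against the summed scaled coverage of 14 macrophage markers (x axes) in 12 libraries, with symbols for the groups and numbers for replicates. In all 3 groups Hmox1 and Slc40a1 are lowest at the lowest sum and highest at the highest, whereas Tfrc is low in the 4 WT libraries (57.2 to 68.2) at any sum.

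In WT, the Blvrb level followed the B cell markers. It was 3.05%, 2.76%, 2.85% and 2.55% of the B cell sum in the WT libraries, 3.69% to 5.08% in Eμ-Myc and 3.06% to 4.58% in Eμ-Myc; PRPS2 KO, so its share of that sum was higher in each Eμ-Myc library than in any WT library. This ratio was looked at after the values were seen and was not tested. The B cell sums were 7185, 12863, 11403 and 6661 in WT, 7574 to 9685 in Eμ-Myc and 6865 to 7748 in Eμ-Myc; PRPS2 KO.

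The genes whose pattern over the 12 libraries was most like that of a member were found by the root mean square difference in log2 coverage, each gene centred on its own mean, among 9654 genes. Mcm2, a subunit of the replicative helicase, was nearest to Tfrc at 0.11, where Tfrc itself varied by 0.93 about its mean. Mcm2 averaged 48.9 in WT, 189.3 in Eμ-Myc and 198.9 in Eμ-Myc; PRPS2 KO. Mms22l, Ddias, Ipo5 and Nsd2 followed at 0.12 to 0.13. Among those nearest to Hmox1 were Hpgd (0.13), Sdc3, Scamp5 and, at 0.17, Slc40a1. Nearest to Slc40a1 were Ptgs1 (0.16), the macrophage marker Adgre1 (0.16), Hmox1 (0.17), Rnf144b and Tgm2. Nearest to Blvrb were Csrp1 (0.16), Ptp4a3, Zfp296, the B cell gene Fcrla (0.18) and Bloc1s5, where Blvrb itself varied by 0.37.

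Promoter windows of 250 bases before to 50 after a start site (RefSeq, GRCm38.p6) were matched for 7 of the 10 genes: Tfrc, Fth1, Ftl1, Ireb2, Hmox2, Blvra and Blvrb. On either strand, the E-box CACGTG, the core bound by Myc with Max, was in no window of these genes and in 7.15% of 32851 windows overall. The shorter ACGTG, which lies inside CACGTG, was in both of the 2 windows of Tfrc, which overlap and hold the same site. It was in 1 of the 2 windows of Blvrb and in 19.6% of all windows. TGACNNNGC, the antioxidant response element core, was in the window of Blvra and in 12.4% of all. These matches describe letters in short windows and say nothing about binding.

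The rest of the pathway was followed through 53 other genes of iron and heme handling, of which 52 were in the files and 42 passed the filter on low coverage. In Eμ-Myc against WT, 15 of the 42 were called (35.7%, beside 56.2% of all genes), 12 higher and 3 lower. The list's median log2 fold change was 0.05, beside -0.07 over all genes. In the role lists the counts below are small and are to be read beside the 28.3% of all genes that were higher and the 27.9% that were lower. Of the 8 uptake genes tested, 2 were higher and 1 lower. Steap3, the endosomal reductase that prepares transferrin-borne iron for transport, was at 15.3, 7.43, 6.74 and 9.67 in WT and 49.1, 50.6, 54.9 and 60.2 in Eμ-Myc. The groups did not overlap, and the log2 fold change was 2.46 (SE 0.23, limma adjusted p = 3.74e-05). Mcoln1, a lysosomal cation channel, fell by 0.77 on the log2 scale (SE 0.13, limma adjusted p = 0.00126).

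Pcbp1, a chaperone that delivers iron to ferritin, rose from 339.3 to 410.3 across the WT libraries to 609.4 to 688.7 in Eμ-Myc (log2 fold change 0.78, SE 0.09, limma adjusted p = 0.000139). Those Eμ-Myc values were all above those of WT. Of 3 genes of storage and handling tested, 2 were higher, too few to set against the 28.3% of all genes.

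Of 11 genes of heme synthesis 4 were higher (36.4%, near the 28.3% of all genes) and 0 lower. Alad, which joins the first precursor into a pyrrole, rose by 0.87 on the log2 scale (SE 0.13, limma adjusted p = 0.000443). The first enzyme of the pathway, Alas1, was not called (-0.24, SE 0.31; named after its value was seen). Of 7 heme transport genes 3 were higher (42.9%, beside 28.3% of all genes): Abcb6, a porphyrin transporter, was at 4.89 to 5.75 in WT and 14.4 to 18.1 in Eμ-Myc (log2 fold change 1.55, SE 0.13, limma adjusted p = 2.55e-05), and Pgrmc2, a heme chaperone, was higher by 0.51 (SE 0.09, limma adjusted p = 0.000958).

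Of the 6 genes of heme-responsive regulation, 2 were lower (33.3%, near the 27.9% of all genes). Bach1, the heme-binding repressor of Hmox1 and ferritin genes, was at 45.2, 22.2, 26.8 and 20.4 in WT and 17.4, 11.5, 11.6 and 10.6 in Eμ-Myc. It fell by 1.09 on the log2 scale (SE 0.26, limma adjusted p = 0.00638), while Hmox1, Fth1 and Ftl1 were not called. Mafk, a small partner of Bach1 and named after its value was seen, was the other. None of the 3 iron regulation genes tested was called, and Hfe, the hemochromatosis gene product, had a log2 difference of -0.30 (SE 0.25, limma adjusted p = 0.317). The Hfe difference ran from -0.47 to -0.082 with 1 library left out. Neutrophil and monocyte sums (9028 to 36170 in WT and 6796 to 22685 in Eμ-Myc) and T cell sums moved beside these genes, and their part was not tested.

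**Figure D4:**
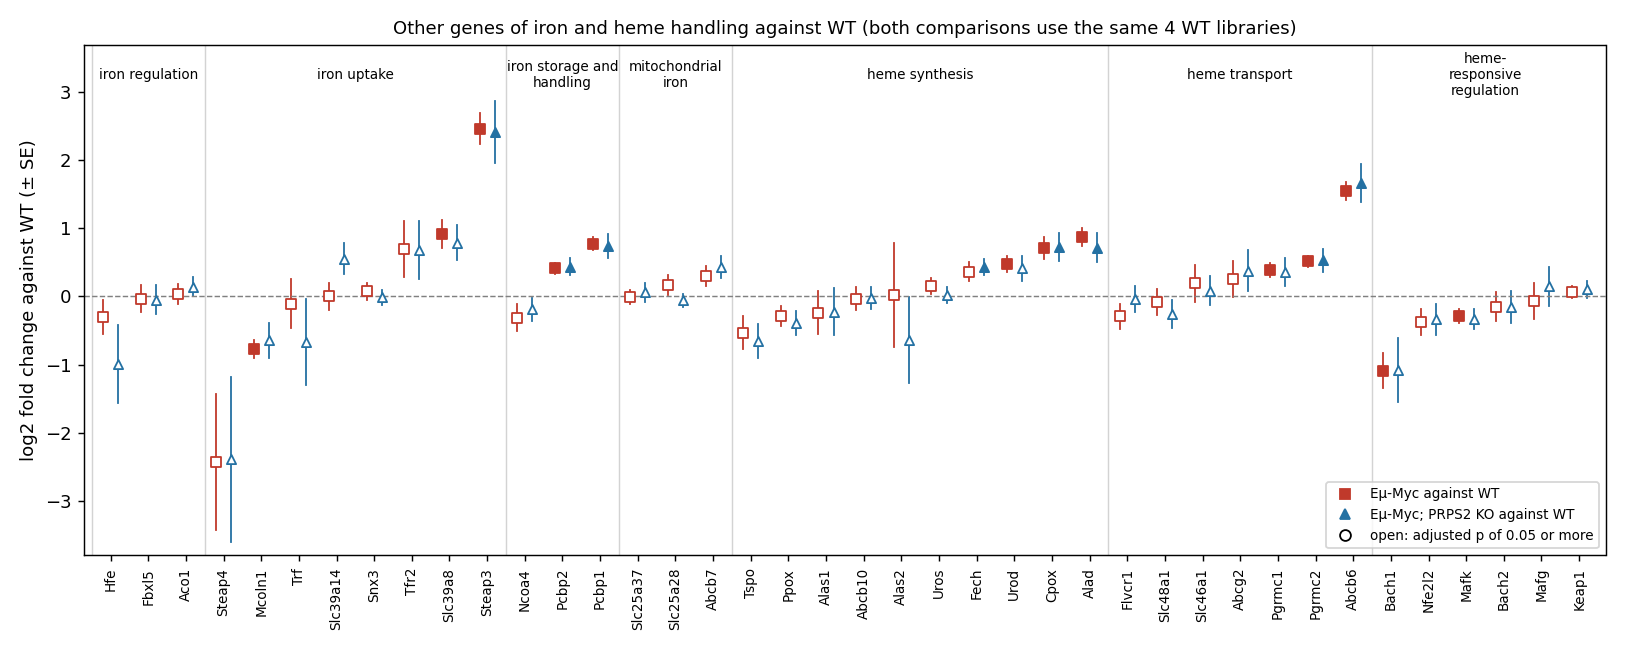
Log2 fold change against WT (y axis, ± SE, 4 libraries per group) of other iron and heme genes tested, grouped by role; squares are Eμ-Myc, triangles Eμ-Myc; PRPS2 KO, and filled symbols have a limma adjusted p under 0.05. Steap3 and Abcb6 are the highest called genes shown, and Bach1 and Mcoln1 are filled below 0 for Eμ-Myc and open for the knockout group, a difference that was not tested; both comparisons use the same WT libraries.

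In Eμ-Myc; PRPS2 KO against Eμ-Myc, 0 of the 42 genes were called by limma, beside 0.00799% of all genes. Of the 42, 1 had an unadjusted p under 0.05, beside 0.967% of all genes. That gene was Slc39a14, an importer of iron not bound to transferrin, at 13.4, 12.7, 15.0 and 16.8 in Eμ-Myc and 16.4, 21.2, 23.9 and 24.9 in the knockout group. The groups overlapped by 1 library, and the log2 difference was 0.55 (SE 0.17, unadjusted p = 0.0112, adjusted p = 1.00). The gene with the smallest p in each of the other role lists had log2 differences of -0.69 (Hfe, SE 0.58), 0.12 (Ncoa4, SE 0.23), -0.22 (Slc25a28, SE 0.15), -0.13 (Uros, SE 0.11), 0.25 (Flvcr1, SE 0.12) and 0.21 (Mafg, SE 0.13). None of them passed. Hfe ran from 69.7 and 42.4 in knockout replicates 1 and 2 to 11.3 and 13.0 in replicates 3 and 4, the same split as the macrophage sums. With quality weights 20 of the 42 passed, beside 57.8% of all genes in that fit.

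In Eμ-Myc; PRPS2 KO against WT, 10 of the 42 genes were called (23.8%, beside 31.4% of all genes). All 10 were higher, and 19.3% of all genes were called higher. Steap3 rose by 2.42 on the log2 scale (SE 0.46, limma adjusted p = 0.0140), with 25.6, 36.0, 90.4 and 86.0 in the knockout libraries. Abcb6 had 1.66 (SE 0.28, limma adjusted p = 0.0106), with 11.8, 13.4, 25.2 and 25.5. In both genes knockout replicates 3 and 4 were more than any Eμ-Myc library and replicates 1 and 2 less, and all were above WT. Pcbp1, Pcbp2, Cpox and Fech had log2 fold changes of 0.43 to 0.74 with adjusted p of 0.0254 to 0.0366. Alad and Pgrmc2 were called as well. Hfe (-0.99, SE 0.57) and Bach1 (-1.08, SE 0.47) did not pass, but did without knockout replicate 1 (adjusted p = 0.0320 and 0.0369). The number called depended on single libraries: it was 1 without WT replicate 2, 2 without WT replicate 1 or 3 or knockout replicate 3 or 4, 3 without WT replicate 4, and 19 without knockout replicate 1. The share of all genes called moved as well. Without WT replicates 1 to 4 in turn it was 8.61%, 5.18%, 6.07% and 12.4%. Without knockout replicates 1, 3 and 4 it was 54.6%, 6.58% and 5.8%. Steap3 missed the threshold without WT replicate 2 (adjusted p = 0.0514).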

How the data were processed

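RNA of splenic B lymphocytes was measured in 12 libraries made with a directional kit, per the labels. The authors deposited 1 file per library with a symbol and a coverage signal for 24982 genes, and 91.6% of values above 0 were not whole, so they are not counts. The submitters' processing notes name mm10, DESeq and R 4.3.3. The aligner, the counting step, any normalisation for length and the annotation are not given in the sources used here. Read depth is unknown, so precision comes from the spread between libraries.

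Scaling factors were unweighted trimmed means of log ratios (30% of ratios and 5% of means trimmed at each end) over 10992 genes with a deposited coverage of at least 1 in all libraries. This minimum was set after the values were seen, because low values carry 1 decimal. A gene was tested in a comparison where 4 or more of its 8 libraries reached a scaled coverage of 1. All 10 members were. limma 3.58.1 in R 4.3.3 fitted log2(scaled coverage + 0.5), with robust empirical Bayes and a mean-dependent prior, two-sided, on the 8 libraries of each comparison. Benjamini-Hochberg adjustment ran over all genes, and an adjusted p under 0.05 was called. Fold changes are on that log2 scale, which understates changes of low genes. The steps were also run on simulated data with independent noise for each gene. Shifts shared by many genes of 1 library were not simulated, so that run does not bear on the calls given here. Tables and figures used Python 3.11.15, numpy 2.4.6, pandas 2.3.3 and matplotlib 3.10.9. Across 11788 genes at a mean of 1 or more, coverage and the longest protein-coding transcript's length had a Spearman rho of -0.19, a description across genes, which are not independent.

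The members and gene lists were chosen with earlier results of these data known. All members were named. Some genes of the other lists are not reported here. From the wider list, each comparison named up to 8 called genes with the smallest adjusted p whose groups did not overlap, and at least the gene of smallest p in each role list. Likeness was measured for Tfrc, Slc40a1, Hmox1 and Blvrb, among genes with a mean of at least 8.

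Replicate numbers were checked for pairing: between the Eμ-Myc groups, same-numbered libraries deviated together (correlations of 0.66, 0.19, 0.25 and 0.61), which comes from the values and not the labels; 2 of the 4 correlated best with their own number. Against WT they did not in every pair. Alternatives changed the scaling, haemoglobin genes (10 removed), filter, pseudocount, fit, replicate block, quality weights and the libraries used.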

Additional observations from a re-analysis of the deposited data

Results flagged for a closer look

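Of 30 sets of 4 libraries (10 genes in 3 groups), 1 held a library far from the others. Blvra in WT replicate 4 was at 38.0, where the other WT libraries were at 57.4, 58.3 and 60.8, and its gap to the nearest was 0.852 of the group's range, beyond Dixon's 95% critical value for 4 samples. Chance alone marks about 1 in 20 such sets. The same library had the lowest WT macrophage sum (1451) and the highest WT T cell sum (3948), and the part of either was not tested. Without it the log2 difference of Blvra was 0.088 instead of 0.24 in Eμ-Myc against WT, and -0.14 instead of 0.02 in Eμ-Myc; PRPS2 KO against WT. None of these passed.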

How the results depend on the processing

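Tfrc was called higher against WT in all alternatives for both Eμ-Myc groups, at 1.77 to 2.05 in Eμ-Myc and 1.70 to 2.32 in Eμ-Myc; PRPS2 KO. The number of members called in Eμ-Myc against WT was 2 with total coverage scaling (57.4% of all genes called), 3 with a replicate block (Blvra and Blvrb passed, adjusted p = 0.0491 and 0.0184; 57.5% of all genes), 4 with quality weights (71.2% of all genes) and 1 to 2 with 1 library left out, so the members stayed below the share of all genes. The wider list gave 24 with quality weights. Total coverage scaling moved the median of all genes from -0.07 to -0.19, and the share of calls that were higher from 50.3% to 42.0%.

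Between the Eμ-Myc groups, quality weights gave 7228 genes (57.8%), 5 members and 20 of the wider list, and the other alternatives gave 1, 0 and 0. The block changed no call there. In Eμ-Myc; PRPS2 KO against WT, 12 libraries in 1 fit gave 6159 genes (48.5%) and 16 of the wider list. A replicate block gave 1905 (15.0%) and 4, and quality weights 10656 (84.0%), 6 members and 29. The share of calls that were higher was then 73.3% with the block and 46.2% with weights. With 1 library left out, 651 (5.18%, WT replicate 2) to 6816 (54.6%, knockout replicate 1) genes were called. So were 1 to 2 members and 1 to 19 of the wider list. Against WT the replicate numbers were taken as shared numbers only, since not every pair correlated above 0.1: correlations were 0.23, -0.097, 0.26 and 0.14 in Eμ-Myc (2 of 4 best with their own number) and 0.40, -0.42, 0.14 and -0.063 in Eμ-Myc; PRPS2 KO (1 of 4).

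Signs changed for differences that had not passed, and the causes were not tested. With total coverage scaling these were Hmox2 in Eμ-Myc against WT (-0.00404), Tfrc between the Eμ-Myc groups (0.0057; 0.00203 with median-of-ratios scaling), and Ireb2 (-0.00425) and Blvra (-0.063) in the knockout group against WT. With quality weights they were Hmox2 (-0.013), Tfrc (0.27), Slc11a2 (-0.13), Ncoa4 (-0.33) and Blvra (-0.095) in the same comparisons, with Slc11a2 and Ncoa4 between the Eμ-Myc groups. With 1 library left out, ranges that crossed 0 in Eμ-Myc against WT were -0.20 to 0.013 for Ireb2, -0.48 to 0.083 for Slc40a1 and -0.38 to 0.16 for Hmox1. Between the Eμ-Myc groups they were -0.18 to 0.18 for Tfrc, -0.032 to 0.096 for Slc11a2, -0.17 to 0.012 for Fth1 and -0.0797 to 0.23 for Ncoa4. In the knockout group against WT they were -0.14 to 0.091 for Blvra and -0.017 to 0.34 for Blvrb. Scaling factors from all genes above 0 were an alternative chosen after seeing the data. Unknown depth and 4 libraries per group limit small differences.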
